A study of Caenorhabditis elegans with 6 samples.

Results

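The genes described are 10 genes of Caenorhabditis elegans, a nematode worm, that encode small heat shock proteins: hsp-16.1, hsp-16.11, hsp-16.2, hsp-16.41, hsp-16.48, hsp-16.49, hsp-12.1, hsp-12.3, hsp-12.6 and hsp-43. They were chosen by name, and 8 of the 10 had a row among the 16262 listed genes. The genes hsp-16.48 and hsp-16.49 had none and were not analysed here. RNA came from whole young adults in 6 libraries. In 3 libraries the animals carried LARP-1::APEX2 (allele yq637), and in the other 3 LARP-1::GFP (allele yq636), each a knock-in fusion to the RNA-binding protein LARP-1. The enzyme APEX2, a modified plant peroxidase, uses H2O2 to attach a biotin-bearing substrate to molecules close by, while GFP is a fluorescent protein without that activity. All animals of both groups were grown at 20 °C, held for 2 h at 25 °C in 3.3 mM biotin-aniline and then given H2O2 for 2 min. Total RNA was freed of ribosomal RNA before sequencing. Animals without the treatment or without a tag were not analysed here, so the values do not show what the warming or the H2O2 did to these genes.

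Small heat shock proteins carry an alpha-crystallin domain, and many of them bind unfolding proteins without using ATP and keep them from aggregating. In C. elegans the hsp-16 genes are scarcely transcribed at growth temperature and are switched on by heat and by oxidants through the heat shock factor HSF-1. The insulin-pathway factor DAF-16 also acts on several small heat shock genes, hsp-12.6 among them. HSP-12 proteins are unusually short members of the family. HSP-12.6 was found in vitro to lack the chaperone activity typical of it.

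The titles of the samples speak of immunoprecipitation, whereas the protocols describe no pull-down, so a difference in recovery near LARP-1 and one in RNA level in the animals cannot be told apart. The strains may also have differed in culture, exact age or the making of the libraries, and these cannot be told apart. In whole animals, fewer cells of a type and less RNA per cell cannot be told apart either. Reads on listed genes numbered 4067144 to 6414569 in the LARP-1::APEX2 libraries and 3824041 to 4420681 in the LARP-1::GFP libraries. On the second principal component, which held 19.5% of the variance, LARP-1::APEX2 replicate 1 stood apart from replicates 2 and 3 of its group. The tagged gene larp-1 averaged 2861 ± 147 normalized counts with APEX2 and 2588 ± 26.8 with GFP (SD, n = 3 each). It did not pass the test (limma, adjusted p = 0.301). Its groups did not overlap, with 2734 to 3022 in APEX2 libraries and 2557 to 2607 in GFP libraries. The same held, higher with APEX2, for 19.9% of all tested genes. All 22 markers of the tissues of an adult hermaphrodite had a row, including those of muscle, intestine, hypodermis, neurons and germline, although the sperm gene spe-9 had at most 1.38 normalized counts in any library. Of the 20 markers tested, glh-1 of the germline and oma-1 of oocytes were called higher in LARP-1::APEX2 animals. Called lower were myo-3 of muscle, pgl-1 of the germline, rme-2 of oocytes and the yolk gene vit-2. Of all tested genes, 11.6% were called higher and 10.1% lower. The summed level of all 22 markers was 37370 to 44176 normalized counts in LARP-1::APEX2 libraries and 42972 to 50661 in LARP-1::GFP libraries. By tissue, the sums did not overlap between the groups for 4 of 10 tissues. Among single tested genes, 17.5% were apart and lower in LARP-1::APEX2 libraries, and 19.9% were apart and higher. The oocyte sum was higher, 2603 to 2865 in LARP-1::APEX2 libraries and 2487 to 2518 in LARP-1::GFP libraries. The germline sum was lower, 1206 to 1528 in LARP-1::APEX2 libraries and 1625 to 1695 in LARP-1::GFP libraries. So were the intestinal sum, 39.2 to 49.5 in LARP-1::APEX2 libraries and 56.0 to 74.2 in LARP-1::GFP libraries, and by a narrow gap the neuronal sum. Single markers did not all follow these sums. The germline and oocyte sums each joined a gene called higher and a gene called lower. Of the neuronal genes, unc-119 had a log2 difference of -0.51, rab-3 of 0.19 and unc-13 of 0.32, and none was called. The part of shifts in marker levels in the results was not tested.

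A normalized count is a gene's read count divided by a size factor of its library. Genes with a mean of at least 10 over the 6 libraries, 10534 in number, were compared as log2(value + 1) with limma, and p-values were adjusted over all of them by the Benjamini-Hochberg method. A gene was called at an adjusted p under 0.05. Each difference is given on that log2 scale with its standard error, and a positive one means higher in LARP-1::APEX2 animals. The groups are called APEX2 and GFP for short. With APEX2, 10.1% of the tested genes were called lower and 11.6% higher, and the median difference of all tested genes was 0.02. Of the 8 members with a row, 6 reached the mean of 10 and 2 did not. Among those 6, hsp-16.2, hsp-16.41, hsp-12.3 and hsp-12.6 fell, none rose, and hsp-12.1 and hsp-43 did not pass.

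**Figure D1:**
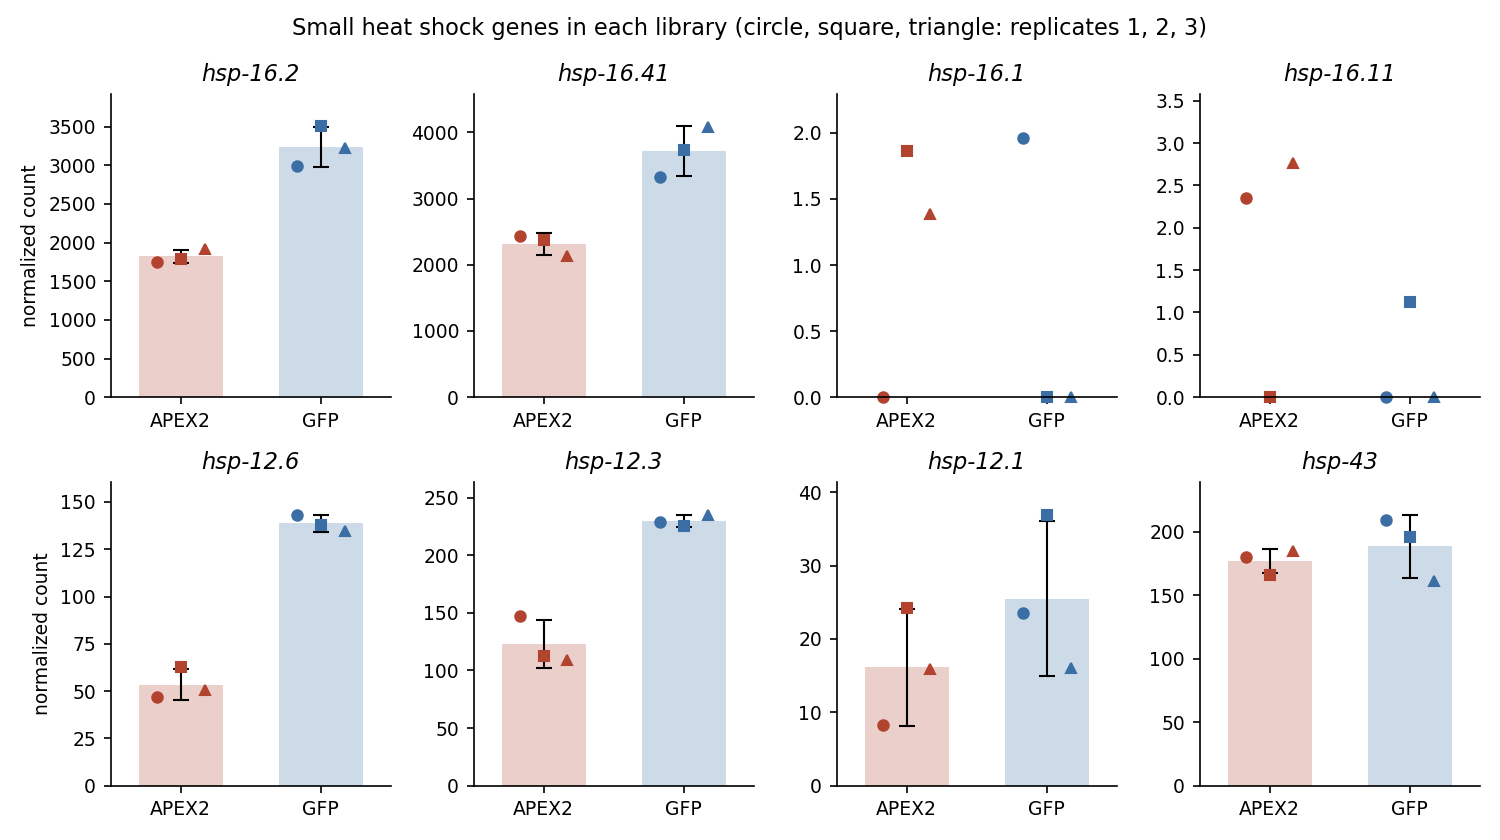
Normalized counts of the 8 members with a row, in each LARP-1::APEX2 (red) and LARP-1::GFP (blue) library; bars are means and error bars SD (n = 3), drawn for the 6 members that were tested. The groups do not overlap for hsp-16.2, hsp-16.41, hsp-12.6 and hsp-12.3, and they do for the other 4.

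The most abundant members were hsp-16.2 and hsp-16.41, neighbouring genes for 16-kDa class chaperones that are transcribed away from each other. In WBcel235 (ce11), hsp-16.2 lies on the minus strand of chromosome V at 1804334 to 1804957 and hsp-16.41 on the plus strand at 1805178 to 1805875, with 220 nucleotides between their annotated starts. Each has 2 exons. The annotation overlaps no other gene with either.

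Counts of hsp-16.2 were 1753, 1793 and 1917 in LARP-1::APEX2 replicates 1 to 3, against 2986, 3507 and 3228 in LARP-1::GFP replicates 1 to 3. Every library with APEX2 lay far below every library with GFP. The gene fell by 0.83 ± 0.10 on the log2 scale (limma, adjusted p = 7.57e-05), to 56.2% of the LARP-1::GFP mean. Its partner hsp-16.41 had 2433, 2378 and 2127 normalized counts with APEX2 and 3329, 3740 and 4085 with GFP. These groups were apart too, and hsp-16.41 fell by 0.68 ± 0.10 (limma, adjusted p = 0.000486), to 62.2% of the LARP-1::GFP mean. Counting did not limit these values, since each gene had at least 1488 reads in every library.

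The proportion between the partners overlapped between the groups. Within a library, hsp-16.41 had 1.27 ± 0.146 times as many reads as hsp-16.2 with APEX2, and 1.15 ± 0.104 times as many with GFP (SD, n = 3 each). That ratio is free of the scaling of libraries (exact permutation test, two-sided, p = 0.3, and 0.3 adjusted over the 3 ratios computed). Added to 1 row before the fit, a step chosen after seeing the data, the pair fell by 0.75 ± 0.09 (limma, adjusted p = 0.000126). The 4 hsp-16 genes with a row took 0.0902% ± 0.0024 of the reads on listed genes in APEX2 libraries and 0.158% ± 0.0111 in GFP libraries (SD, n = 3 each). Their summed level was 4137 ± 77.2 normalized counts with APEX2 and 6960 ± 557 with GFP, with an exact two-sided permutation p of 0.1, the smallest that 3 against 3 libraries can give.

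The second hsp-16 locus, on chromosome V at 9087293 to 9090604, holds near-identical inverted copies of a divergent pair, hsp-16.1 with hsp-16.48 and hsp-16.11 with hsp-16.49. The Ensembl annotation gives hsp-16.1 and hsp-16.11 the same symbol, and likewise hsp-16.48 and hsp-16.49. The gene hsp-16.1 had 0, 2 and 2 reads in the LARP-1::APEX2 libraries and 2, 0 and 0 in the LARP-1::GFP libraries. Its copy hsp-16.11 had 2, 0 and 4 reads with APEX2 and 0, 1 and 0 with GFP. These reads are too few to compare the groups. Over all libraries of a group, the copies together had 10 reads with APEX2, where hsp-16.2 alone had 6181, and 3 reads with GFP, where hsp-16.2 alone had 8998.

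The summed normalized counts of these copies were 2.79 ± 1.20 with APEX2 and 1.03 ± 0.985 with GFP (SD, n = 3 each; exact two-sided permutation p = 0.2). A count of 0 allows up to 3 reads, and no fold change is given. How reads matching several places were counted is not given in the sources used here, so the level of this locus is uncertain, and the part that shared sequence plays in it was not tested.

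The HSP-12 genes had lower counts, and hsp-12.6 had the largest difference among the members tested. It lies on the minus strand of chromosome IV at 9446229 to 9447228 with 3 exons. Its neighbour hsp-12.3, for a closely related HSP-12 protein, lies 721 nucleotides away on the same strand, at 9444791 to 9445507, with 2 exons. A piRNA gene of 21 nucleotides lies within hsp-12.6 on its strand, and another within hsp-12.1 on the opposite strand, and their reads could not be told apart. Of hsp-12.6 there were 47.1, 62.5 and 50.5 normalized counts with APEX2, against 143, 138 and 135 with GFP. The highest library with APEX2 reached 46.4% of the lowest library with GFP. It fell by 1.37 ± 0.18 (limma, adjusted p = 0.000148), to 38.5% of the LARP-1::GFP mean, the lowest difference but 130 among all tested genes. Reads of hsp-12.6 numbered 40 to 73 per library with APEX2 and 118 to 146 with GFP.

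The counts of hsp-12.3 were 147, 113 and 109 with APEX2, and 229, 225 and 235.3 with GFP. All 3 libraries with APEX2 were below all 3 with GFP, and the gene fell by 0.91 ± 0.15 (limma, adjusted p = 0.000883), to 53.5% of the LARP-1::GFP mean. APEX2 replicate 1 was the highest of its group for hsp-12.3 and the lowest for hsp-12.6. The ratio of hsp-12.6 to hsp-12.3 was accordingly 0.320, 0.554 and 0.465 with APEX2, below the 0.627, 0.612 and 0.573 with GFP (exact two-sided permutation p = 0.1, the smallest possible, and 0.15 adjusted over 3 ratios). These ratios did not overlap between the groups, and 3 against 3 libraries cannot pass the threshold in this test.

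The third HSP-12 gene, hsp-12.1, lies on chromosome I at 10581538 to 10582615. It had 8.25, 24.3 and 15.9 normalized counts with APEX2 and 23.6, 36.96 and 15.99 with GFP. These groups overlapped, and its difference of -0.67 ± 0.40 did not pass (limma, adjusted p = 0.265). It rested on 7 to 26 reads per library with APEX2 and 14 to 33 with GFP, and leaving out single libraries moved the difference between -1.01 and -0.28. With that standard error, a fall as large as that of hsp-16.2 would not have been detectable. Summed over the 3 HSP-12 genes, the level was 192 ± 15.2 normalized counts with APEX2 and 394 ± 7.10 with GFP (SD, n = 3 each; exact two-sided permutation p = 0.1, the smallest possible).

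The gene hsp-43, on chromosome X at 6233151 to 6235543 with 7 exons, encodes a longer small heat shock protein. It had 180, 166 and 185 normalized counts with APEX2 and 209, 196 and 161 with GFP. The groups overlapped throughout, with a difference of -0.08 ± 0.14 (limma, adjusted p = 0.722). Its reads were 153 to 267 with APEX2 and 141 to 213 with GFP, where hsp-12.3 had 121 to 157 with APEX2 and 201 to 233 with GFP. Within a library, the hsp-16.2 and hsp-16.41 counts together were 23.2, 25.1 and 21.9 times those of hsp-43 with APEX2, and 30.2, 36.97 and 45.4 times with GFP. This ratio did not overlap between the groups either (exact two-sided permutation p = 0.1, the smallest possible, and 0.15 adjusted over 3 ratios). The counts of the pair already did not overlap and hsp-43 was not called, so the ratio is no separate result.

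**Figure D2:**
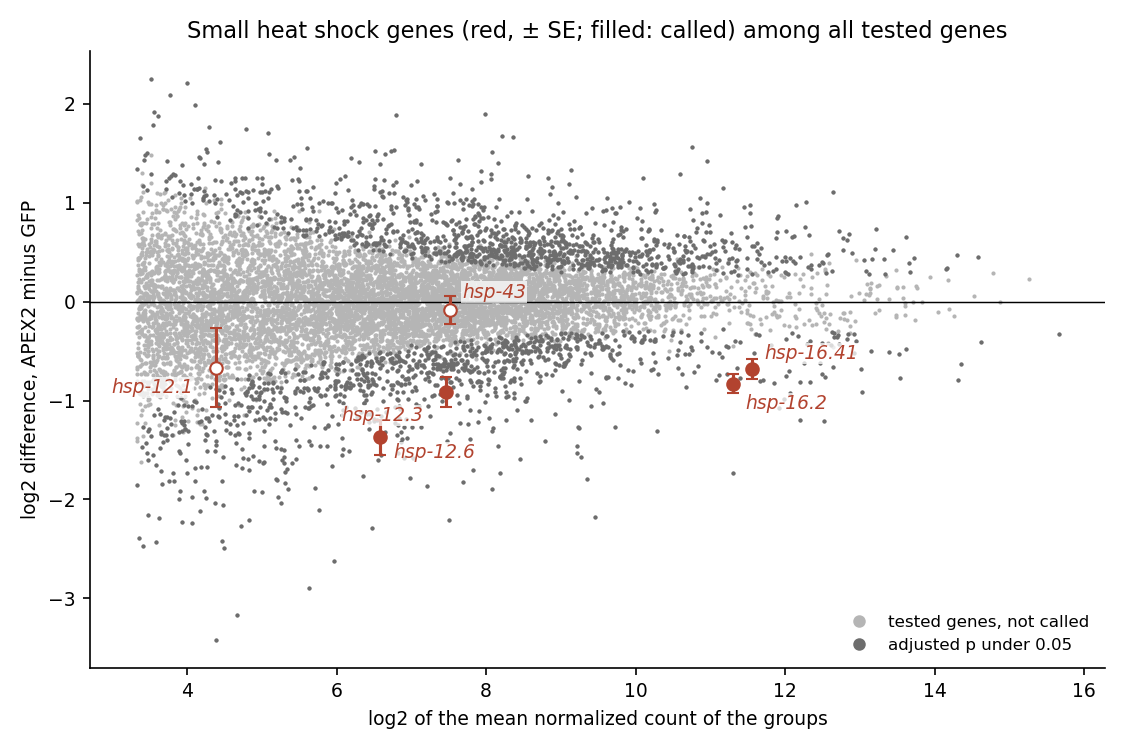
Log2 difference, LARP-1::APEX2 minus LARP-1::GFP, against the log2 mean normalized count of the 10534 tested genes (grey; darker where the adjusted p is under 0.05), with the 6 tested members in red and their standard errors. The filled points hsp-16.2, hsp-16.41, hsp-12.3 and hsp-12.6 lie between -1.37 and -0.68, and the open points are hsp-12.1 and hsp-43.

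The 4 members whose groups do not overlap are read against 17.5% of all tested genes, the share in which every library with APEX2 lay below every library with GFP, and 19.9% were apart in the other direction. By size of the difference, 1.23% of the tested genes lay below hsp-12.6, 4.05% below hsp-12.3, 5.15% below hsp-16.2 and 8.05% below hsp-16.41. In each of the scalings, filters and tests tried, and without any single library, the same 4 members were called lower, or their summed row where hsp-16.2 and hsp-16.41 were added, while 5.23% to 12.12% of all genes tested were. The highest adjusted p of these alternatives was 0.00196 for hsp-16.2, 0.00853 for hsp-16.41, 0.0111 for hsp-12.3 and 0.00308 for hsp-12.6 (limma, without LARP-1::GFP replicate 3 in each case).

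**Figure D3:**
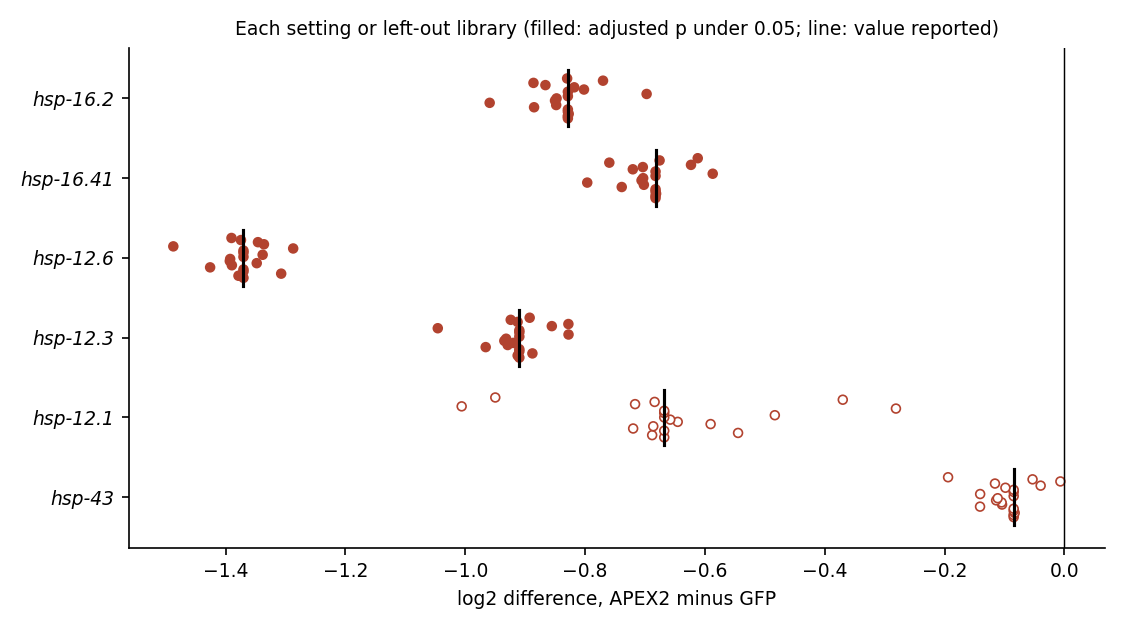
Log2 difference, LARP-1::APEX2 minus LARP-1::GFP, of the 6 tested members under each setting or left-out library (points; filled where the adjusted p is under 0.05) and as reported (black line). The points of hsp-12.6 lie between -1.49 and -1.29 and those of hsp-16.2 between -0.96 and -0.70, while those of hsp-12.1 and hsp-43 are all open.

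Levels of different genes were compared per kilobase of exon, since the members span 432 to 1385 exonic nucleotides. In normalized counts per kilobase, hsp-16.41 stood at 3613 ± 255 with APEX2 and 5810 ± 591 with GFP (SD, n = 3 each). For hsp-16.2 the level was 3151 ± 148 with APEX2 and 5606 ± 451 with GFP. The ranges of these neighbours in the order were apart by little with APEX2, 3323 to 3802 for hsp-16.41 against 3034 to 3317 for hsp-16.2, and overlapped with GFP. They ranked 169th and 176th of 16215 genes with a known exonic length. Far below, hsp-12.3 had 185 ± 31.9 with APEX2 and 345 ± 7.72 with GFP.

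The order of the next members differed between the groups. With APEX2 the level per kilobase of hsp-43, 128 ± 7.03, was above that of hsp-12.6, 69.4 ± 10.5. With GFP it was the other way round, 136 ± 17.9 for hsp-43 and 180 ± 5.66 for hsp-12.6, with no overlap of their ranges in either group. Lowest of the tested members was hsp-12.1, at 32.4 ± 16.08 with APEX2 and 51.2 ± 21.3 with GFP. Replicates with APEX2 varied by a coefficient of variation of 4.69% for hsp-16.2 and 17.2% for hsp-12.3, and those with GFP by 8.05% and 2.24%.

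Among all tested genes the shortest had lower differences, and the members that fell are short. They have 578 nucleotides for hsp-16.2, 640 for hsp-16.41, 665 for hsp-12.3 and 769 for hsp-12.6. These lengths fall in the second shortest decile of the tested genes, from 566 to 780 nucleotides, where the median difference was -0.06 and 129 of 1049 genes were called lower. In the shortest decile, which holds hsp-12.1, the median was -0.27 and 25.5% were called lower. In the deciles from 996 nucleotides upwards the medians were level, between 0.05 and 0.08. Corrected for the trend with length, the difference was -0.70 ± 0.10 for hsp-16.2, -0.59 ± 0.10 for hsp-16.41, -0.83 ± 0.15 for hsp-12.3 and -1.34 ± 0.18 for hsp-12.6. All 4 stayed called with that correction (limma, highest adjusted p = 0.00175), which left 9.15% of all genes called lower.

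**Figure D4:**
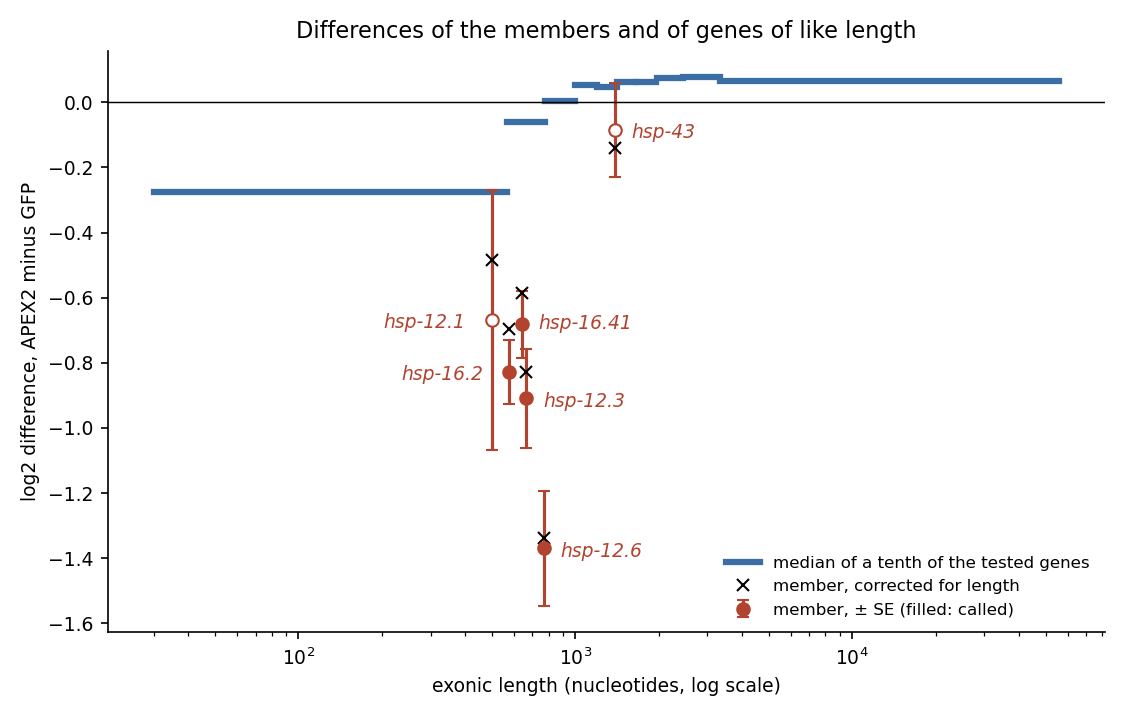
Log2 difference, LARP-1::APEX2 minus LARP-1::GFP, against exonic length (log scale) for the 6 tested members (red, ± SE, filled where called), with the medians of each length decile of the tested genes (blue bars) and the members' differences after correction for length (crosses). The 4 called members lie below the median of -0.06 of genes of their length, which is not corrected for length. Their corrected differences lie below that uncorrected median too.

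None of the other small heat shock genes examined was called. Of 8 such genes, all with a row, 7 were tested, and 0 rose and 0 fell. Of all tested genes, 11.6% were called higher and 10.1% lower. At those shares, 7 genes are too few for the absence of calls to set this list apart. The median difference of the list was 0.01. Limma gave 0 of the 7 an unadjusted p under 0.05, where 3575 of all 10534 tested genes had one. At an adjusted p under 0.05, edgeR and DESeq2 called 0 of the 7, where they called 21% and 18.7% of all tested genes in either direction. The gene sip-1, which encodes a small heat shock protein of embryos and had the highest counts of this list, had 6520, 4790 and 5034 normalized counts with APEX2 and 5636, 4747 and 4426 with GFP. Its groups overlapped, and the difference of 0.14 ± 0.13 did not pass (limma, adjusted p = 0.489). Likewise hsp-25 averaged 697 ± 171 with APEX2 and 586 ± 77.7 with GFP (SD, n = 3 each), a difference of 0.23 ± 0.15 (limma, adjusted p = 0.320). Whether these genes differed from the members in their response was not tested.

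The inducible cytosolic HSP70 genes, which HSF-1 switches on together with hsp-16 genes after heat, were lower too. All 3 examined fell, with a median of -0.69, where 10.1% of all tested genes were called lower. The gene hsp-70 had 1191, 1485 and 1608 normalized counts with APEX2 and 2341, 2229 and 2118 with GFP. Its groups did not overlap, and it fell by 0.65 ± 0.11 (limma, adjusted p = 0.00127). The divergent copies F44E5.4 and F44E5.5, which may share reads, fell by 0.69 ± 0.17 and 0.69 ± 0.16 (limma, adjusted p = 0.0113 and 0.00581).

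Those copies differed among the libraries with APEX2. For F44E5.4 replicate 1 had 1317 normalized counts, close to the 1388 to 1509 with GFP, while replicates 2 and 3 had 816 and 697. The call of F44E5.4 ended without APEX2 replicate 2 (adjusted p = 0.0605), GFP replicate 2 (0.0509) or GFP replicate 3 (0.0591). Added to 1 row, the copies fell by 0.69 ± 0.16 (limma, adjusted p = 0.00765). For hsp-16.2 and hsp-16.41, by contrast, replicate 1 lay with the rest of its group.

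Of 15 genes for HSF-1, its regulators and constitutive chaperones, 5 rose, 2 fell and the other 8 were not called, where 11.6% of all tested genes were called higher and 10.1% lower. The median was 0.05. The DnaJ-type co-chaperone gene dnj-19 averaged 2895 ± 414 normalized counts with APEX2 and 1568 ± 75.8 with GFP (SD, n = 3 each), and rose by 0.88 ± 0.11 (limma, adjusted p = 0.000124). The gene cdc-37, for a kinase-specific HSP90 co-chaperone, rose by 0.64 ± 0.12 (limma, adjusted p = 0.00184). The transcription factor gene hsf-1 itself was higher with APEX2, 298 ± 21.1 normalized counts against 218 ± 12.4 with GFP, a difference of 0.45 ± 0.12 (limma, adjusted p = 0.0182). The gene ddl-2, whose product belongs to a complex that restrains HSF-1, fell by 0.48 ± 0.12 (limma, adjusted p = 0.0109). The regulator genes hsb-1 and ddl-1 of the same list had -0.25 ± 0.17 and -0.04 ± 0.18. Neither was called (limma, adjusted p = 0.334 and 0.908). The chaperone gene hsp-90 rose by 0.43 ± 0.09 (limma, adjusted p = 0.00513). It stayed called without any single library (limma, highest adjusted p = 0.0399). The DnaJ-type gene dnj-13 fell by 0.46 ± 0.10 (limma, adjusted p = 0.00621). The calls of hsf-1 and ddl-2 ended without GFP replicate 2 (adjusted p = 0.0705 and 0.0623) or GFP replicate 3 (0.0916 and 0.0542), and that of dnj-13 without GFP replicate 3 (0.0537). Without GFP replicate 3 the list held 3 genes called higher and none lower.

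Among daf-16 and targets of its product, a group to which hsp-12.6 also belongs, the called genes were all lower. Of 10 genes 9 had a row and 6 were tested, sip-1 among them. In this list 4 fell, 0 rose and 2 were not called, where 10.1% of all tested genes were called lower and 11.6% higher. The median was -0.35. The genes not called, dod-3 and sip-1, had differences of 0.03 and 0.14. The metallothionein gene mtl-1 had 97.8, 75.6 and 97.6 normalized counts with APEX2 and 348, 261 and 359 with GFP. Its groups were far apart, and it fell by 1.82 ± 0.17 (limma, adjusted p = 9.35e-06). The alcohol dehydrogenase gene sodh-1 fell by 1.31 ± 0.12 (limma, adjusted p = 9.19e-06). The gene daf-16 fell by 0.36 ± 0.11 (limma, adjusted p = 0.0285). The superoxide dismutase gene sod-3, a standard reporter of DAF-16, had a mean under 10 in both groups and was not tested. The call of daf-16 ended without any single library other than APEX2 replicate 1 (adjusted p of 0.0635 to 0.128), and 2 genes of this list were called lower without APEX2 replicate 2 or 3 or any GFP library.

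Among 10 genes of the response to peroxide 2 rose, none fell and the other 8 were not called, where 11.6% of all tested genes were called higher and 10.1% lower. The median was 0.15. The peroxiredoxin gene prdx-2, whose product reduces H2O2, averaged 5892 ± 444 normalized counts with APEX2 and 4541 ± 238 with GFP (SD, n = 3 each), and rose by 0.37 ± 0.10 (limma, adjusted p = 0.0126). The glutathione transferase gene gst-10 rose by 0.43 ± 0.14 (limma, adjusted p = 0.0445). The call of prdx-2 ended without GFP replicate 1 (adjusted p = 0.0633) or 3 (0.0658). That of gst-10 ended without any single library other than APEX2 replicate 1 (adjusted p of 0.0758 to 0.196), and without APEX2 replicate 1 the list held 4 genes called higher.

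**Figure D5:**
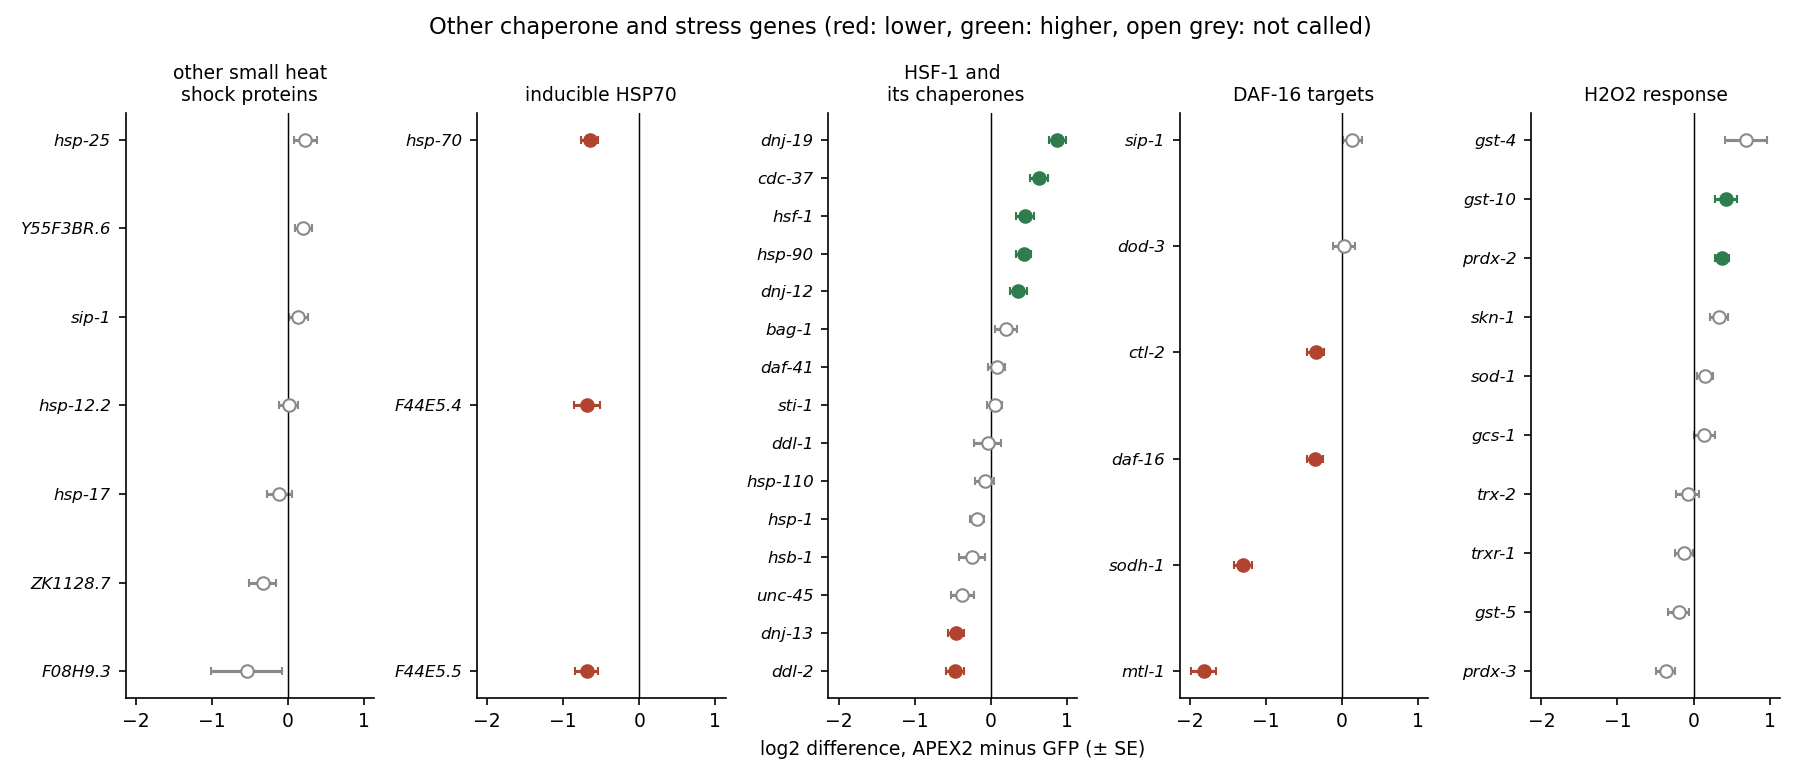
Log2 difference, LARP-1::APEX2 minus LARP-1::GFP (± SE), of each tested gene in 5 lists of other chaperone and stress genes; red points were called lower, green points higher, and open grey points were not called. All 3 inducible HSP70 genes lie left of 0, the other small heat shock genes are all open, and the genes of HSF-1 and its chaperones lie on both sides.

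Of the nearest tested genes on either side of the hsp-16 loci, 1 of 4 was called, where 21.7% of all tested genes were called in either direction. The gene F36H9.5, 22312 nucleotides left of hsp-16.2, had a difference of 1.00 ± 0.45, and Y46H3A.4, 3682 nucleotides right of hsp-16.41, had -0.70 ± 0.36 (limma, adjusted p = 0.131 and 0.186). At the second locus, T27E4.7, 10971 nucleotides to the left, had -0.08 ± 0.19, and F21C10.10, 5663 nucleotides to the right, fell by 0.63 ± 0.13 (limma, adjusted p = 0.803 and 0.00361). The 5 tested genes whose levels over the 6 libraries were most like the summed hsp-16 level were gstk-2, T20B3.1, W02D9.6, uaf-2 and R11A5.3, with Pearson's r of 0.996 to 0.999 on the log2 scale. The libraries fall into 2 groups that differ in hsp-16 level, and all 5 genes were also called lower with APEX2, so these r values carry that difference. The call of gstk-2 rested on single libraries, with an adjusted p of 0.151 without GFP replicate 3 (limma). On deviations from the group means, which leave it out, the most similar genes were eif-3.F, sulp-2, trpp-3, mpc-2 and csn-5. Their r was 0.992 to 0.997 over the same 6 libraries, and none of them was called. Both lists hold the highest r values of all tested genes outside the members, over only 6 libraries. Such values can arise by chance in so wide a search, and no test was made.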

How the data were processed

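RNA-seq was done on 6 libraries of whole worms, 3 per strain, which the labels group by title and genotype. The authors deposited normalized counts, a signal per gene that is a read count divided by 1 size factor per library. The values themselves show it: once divided by the worth of 1 read, 100% came out whole to within 0.001. Trim Galore, featureCounts, Bowtie, STAR and DESeq2 stand in the submitters' processing notes with the build ce11. Their versions, settings and any use of strand were not given in the sources used here. From these values, log2(value + 1) was compared with limma 3.58.1 (R 4.3.3; trended, robust prior; mean of at least 10; no covariate; tests in both directions). On the recovered reads, edgeR 4.0.16 called 1121 genes higher and 1095 lower; DESeq2 1.42.0 was also run. Fits were tested on simulated data. Of 16262 names, 16215 had a match in Ensembl's WBcel235 annotation. Length correction subtracted a lowess trend (span 0.3) on exonic length from the APEX2 values. The members, lists and tests were chosen with earlier results of these data known. All members were named. Of each list, the called genes with the largest differences were named, at most 3 in each direction. With fewer than 2 called, the 2 most abundant genes were named. Outside that rule, hsb-1, ddl-1, hsp-90, dod-3 and sod-3 were named too. Nothing in the labels ties the replicates to separate cultures, and p-values then measure only how these samples vary, possibly for technical reasons. Within groups, counts varied more than sampling noise (chi-square per degree of freedom 2.82 to 12.2). Limits from counts of 0 cover counting error only, since reads copied by PCR are not separate molecules.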

Additional observations from a re-analysis of the deposited data

How the results depend on the processing

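In the 18 alternatives in which the members were tested one by one, 4 were called lower and 0 higher each time. The counts over all genes, 1219 higher and 1069 lower, ranged from 612 to 1308 and from 550 to 1192 when single libraries were left out; without GFP replicate 1, 2 or 3 they were 743, 783 or 612 higher and 660, 636 or 550 lower. The median of the DAF-16 targets was -0.10 with no filter on low values, which adds genes near 0, and that of the other small heat shock genes was 0.14 after correction for length. The difference of sip-1 ranged from -4.88e-05 (without APEX2 replicate 1) to 0.24. Over the other settings, gst-10 lost its call under 6 and daf-16 under the replicate block. Replicate numbers did not pair the samples: same-numbered libraries had correlations of deviations of -0.16, -0.08 and 0.02. With the replicate block, 984 genes were called higher and 883 lower, and 2 DAF-16 targets were lower and 1 peroxide gene higher. Under 6 alternatives 1 peroxide gene was called lower. The cause of these changes was not tested. Near-identical copies could be summed for hsp-16.1 and hsp-16.11 only, whose sum stayed under the mean of 10 and was not tested; with no filter both were tested and neither was called. Fewer than 40 reads per library limit hsp-12.1, hsp-16.1 and hsp-16.11.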
